A study of Cucurbita pepo with 23 samples.

Results

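The core genes of the circadian clock were followed through the maturation, secretion and post-secretion of squash nectaries. A table row, called an entry here, was taken as a clock gene if its Arabidopsis identifier was 1 of 12 that mark *CCA1*, *LHY*, *TOC1*, *PRR7*, *PRR9*, *PRR5*, *GIGANTEA* (*GI*), *ELF3*, *ELF4*, *LUX*, *FKF1* and *ZTL*. Also taken were 3 entries listed by name, which the identifiers had found as well. This gave 12 entries from 10 melon loci, of 8861 entries in all, and 9 of the 12 identifiers had at least 1 entry. *CCA1*, *PRR9* and *ELF4* had no entry and are not analysed here.

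The plant clock is a set of genes that switch each other on and off over the day. In Arabidopsis, the MYB proteins LHY and CCA1 accumulate around dawn and repress genes of the evening. The pseudo-response regulators (PRRs) follow through the day and repress *LHY* and *CCA1* in turn, and the evening complex of ELF3, ELF4 and LUX acts at dusk and in the night. GI and the blue light receptors of the ZTL family control how long clock proteins last. In floral organs, clock genes are known to set the hours of scent emission and of flower opening in several species.

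RNA was sequenced from hand-dissected nectaries of female and male flowers of *Cucurbita pepo* (Crookneck Yellow Squash) of no stated mutant or treatment, grown under a cycle of 16 hr of light and 8 hr of dark. The groups were nectaries of each sex at −24 hr and −15 hr before anthesis (pre-secretory), at full anthesis (0 hr, secretory) and at +9 hr (post-secretory), in 23 libraries (2 for the female −15 hr group and 3 for each other group). In the labels the hours of the second and last groups read −12 and +12, where the study's text has −15 and +9, and the text's hours are kept here. The −24 and 0 hr samples were thus taken in the morning and the −15 and +9 hr samples later in the day. Only 4 times were sampled, none of them at night. Hours count from anthesis of the flower, so the first and second day here are days of flower age. Dates of collection are not given, and flower age and any difference in date cannot be told apart. Nothing says that replicates came from separate plants, so the p-values may measure only technical spread.

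The values are reads assigned to melon entries, scaled by the authors to a like upper quartile and rounded. They sum to between 9269760 and 16139522 per library. The nectary labels were checked against *SWEET9*, the sucrose exporter of nectaries, and *MYB305*, a nectary transcription factor. *SWEET9* (XM_008443590.1) had values of 136 to 220 in female nectaries at −24 hr and of 44688 to 151449 in male nectaries at −24 hr. In the secretory samples it was between 269060 and 539149 in the 6 libraries of both sexes. *MYB305* (XM_008445303.1) had values of 37 to 64 in the female and 41446 to 47096 in the male libraries at −24 hr. By +9 hr *SWEET9* was down to between 368 and 38423 and *MYB305* to between 352 and 7748. The nectar invertase *CWINV4* (XM_008446238.1), the 1 entry of the nectary marker list, was between 13577 and 62378 at −15 hr, between 422 and 4621 at 0 hr and between 33 and 120 at +9 hr. *SWEET9* and *MYB305* were therefore nearly absent from the female −24 hr libraries. Of the marker lists for other tissues, the summed values of the 9 green tissue entries lay between 89 and 14703 in the 23 libraries. They were between 872 and 1080 in female and between 484 and 1214 in male nectaries at −24 hr. Pollen and tapetum markers (1 entry) were at 467 to 905 in the female −24 hr libraries and at 255 or below in every other library. Vascular markers (2 entries) summed to between 608 and 632 in female and between 163 and 200 in male nectaries at −24 hr.

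*LHY*, the dawn repressor, was high at full secretion and low in the evening before it, in both sexes. For the main entry, LHY-like variant X1 (XM_008461600.1, locus LOC103498835), female values were 600, 429 and 262 at −24 hr, 218 and 874 at −15 hr, 101822, 53890 and 62994 at 0 hr, and 14725, 835 and 564 at +9 hr. Male values were 20838, 17112 and 12254 at −24 hr, 669, 598 and 437 at −15 hr, 95707, 54166 and 22774 at 0 hr, and 1892, 4036 and 9799 at +9 hr. The 0 hr libraries of each sex lay above all other libraries of that sex. The female −24 hr libraries lay within the range of the female −15 hr libraries, whereas in male nectaries every −24 hr library lay above every −15 hr library. From −15 to 0 hr the entry rose in female nectaries (7.32 on the log2 scale, standard error 0.98, adjusted p = 4.4e-06 in the limma fit) and in male nectaries (6.45, standard error 0.87, adjusted p = 4.8e-06). From 0 to +9 hr it fell by 5.20 on the log2 scale in female (standard error 0.87, adjusted p = 4.7e-05) and by 3.54 in male nectaries (standard error 0.87, adjusted p = 0.0016). In bulk tissue, a fall in the number of expressing cells and in RNA per cell cannot be told apart.

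Some of the LHY-like values rested on single libraries. At +9 hr, female replicate 1 stood apart from the other female libraries, and male replicate 3 was the highest male library. Without female replicate 1 the female fall was −6.67, and without female replicate 2 or 3 it was −4.60 or −4.32, each still called. Without male replicate 3 the male fall was −4.15. The female overnight rise was 6.33 without the first −15 hr library and 8.32 without the other, which is numbered 3 in its label.

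LHY-like variant X3 (XM_008461602.1) is another transcript of the same locus. It ran from 18 to 10075 over the 23 libraries and made up 6.14 to 13% (median 8.63%) of the summed X1 and X3 values. A further variant of the locus, X6 (XM_008461606.1), carried no Arabidopsis identifier and was not counted as a member. Its group means were 51.0, 71.5, 9885 and 599 in female nectaries at −24, −15, 0 and +9 hr, and 3543, 67.7, 7502 and 587 in male nectaries. The transcripts of this locus share sequence, so the split of reads between them is uncertain, and their changes are not independent of each other.

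**Figure D1:**
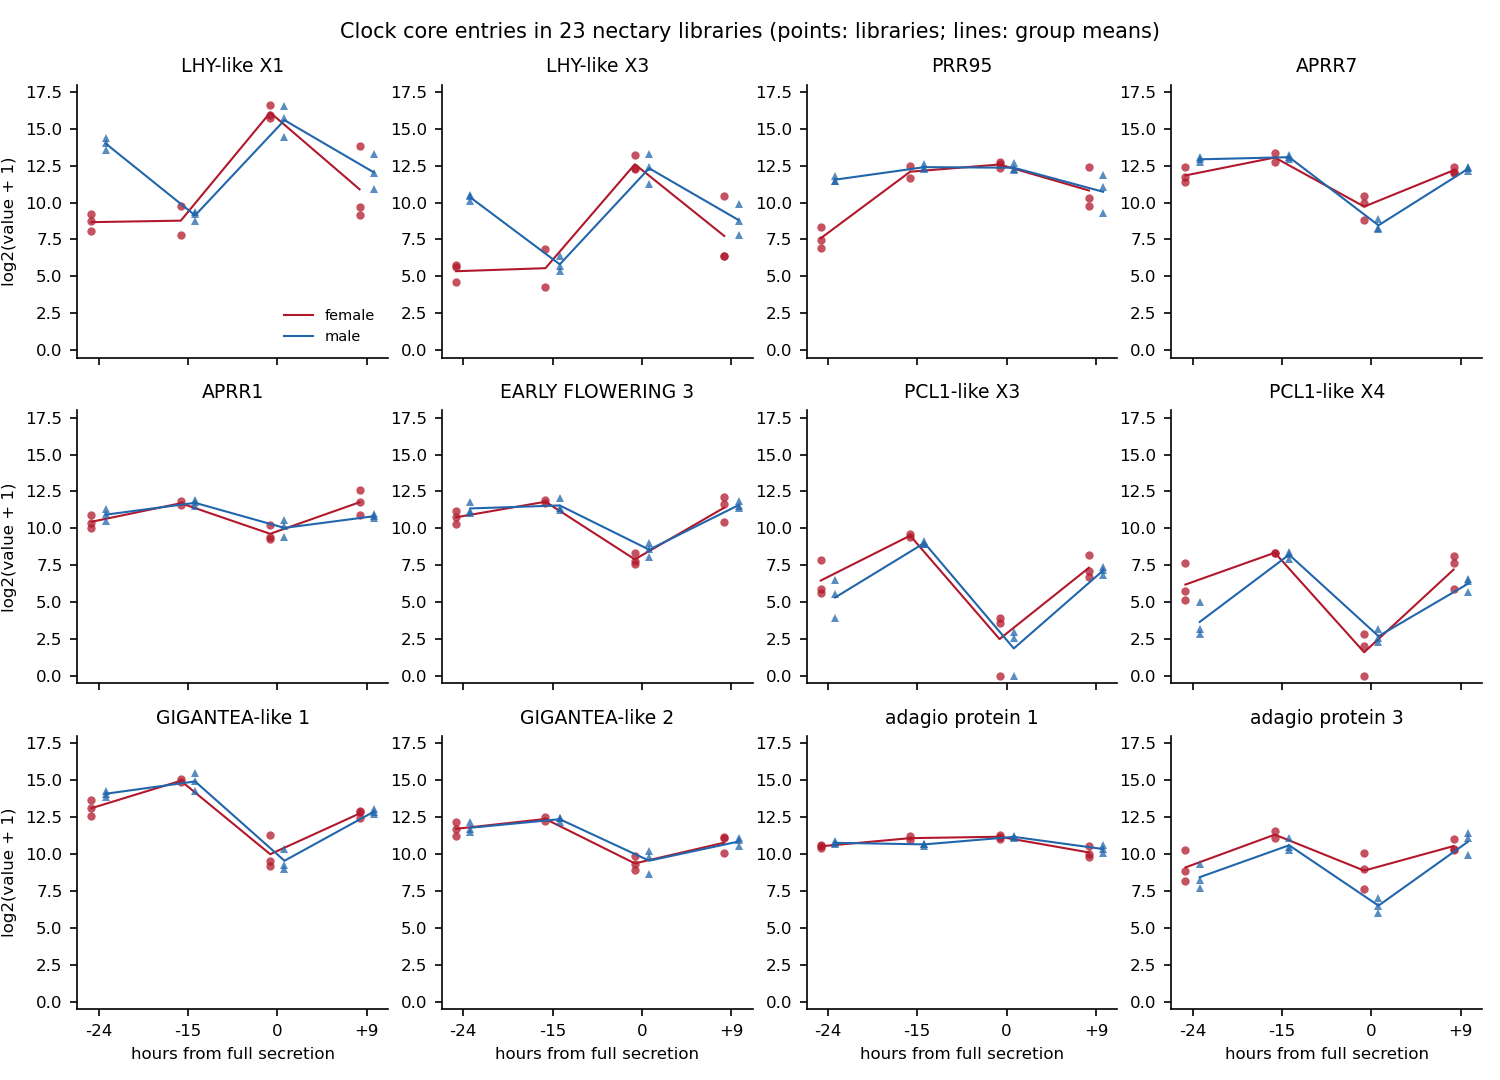
Values of the 12 clock core entries in each of the 23 libraries, as log2(value + 1), against the hours from full secretion. Circles are female and triangles male libraries, and lines join the group means. The LHY-like entries peak at 0 hr, where APRR7, EARLY FLOWERING 3, the PCL1-like and the GIGANTEA-like entries are at their lowest, and the female −24 hr libraries are low in LHY-like X1 (262 to 600) and PRR95 (121 to 330).

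Of the pseudo-response regulators, *PRR95* followed LHY only in part and did not fall overnight with the evening genes. Its Pearson r with LHY-like X1 over the 23 libraries was 0.54, but unlike LHY-like X1 it was already high at −15 hr. The entry PRR95 (XM_008439441.1) carries the identifiers of Arabidopsis *PRR5* and *PRR3*, genes of the afternoon and evening. Female values were 121, 173 and 330 at −24 hr, 3298 and 5754 at −15 hr, 5286, 6832 and 6340 at 0 hr, and 5334, 1245 and 884 at +9 hr. Male values were 2752, 2776 and 3526 at −24 hr, 5194, 6279 and 4837 at −15 hr, 4648, 4856 and 6434 at 0 hr, and 637, 2101 and 3651 at +9 hr. The female −24 hr libraries were all below every other library, and male nectaries had no such low values on the first day. PRR95 rose in female nectaries from −24 to −15 hr (4.51 on the log2 scale, standard error 0.63, adjusted p = 1.5e-05 in the limma fit). Its change from −15 to 0 hr was 0.49 in female and −0.04 in male nectaries (adjusted p = 0.51 and 0.96 by limma). From 0 to +9 hr it fell by 1.76 in female and by 1.63 in male nectaries (standard error 0.56 for both, adjusted p = 0.01 and 0.017). The female 0 and +9 hr libraries overlapped, and the female fall was −1.25 without +9 hr replicate 3, where it no longer passed (adjusted p = 0.077), and −2.54 without replicate 1. The male fall no longer passed without 0 hr replicate 3 (−1.48, adjusted p = 0.054) or +9 hr replicate 1 (−0.92, adjusted p = 0.14).

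APRR7 (XM_008449024.1), which carries the identifiers of *PRR7* and *PRR3*, is the counterpart of *PRR7*, a daytime repressor of *LHY* and *CCA1* in Arabidopsis. It was lowest at full secretion. Female values were 2687, 3356 and 5446 at −24 hr, 7010 and 10281 at −15 hr, 446, 1382 and 983 at 0 hr, and 4182, 5552 and 4359 at +9 hr. Male values were 6911, 7790 and 8793 at −24 hr, 7782, 8686 and 9500 at −15 hr, 291, 306 and 482 at 0 hr, and 5320, 5109 and 4548 at +9 hr. No library at 0 hr reached the lowest value of any other stage in its sex. APRR7 fell by 3.32 (standard error 0.36, adjusted p = 4.4e-07 by limma) overnight in female and by 4.62 (standard error 0.32, adjusted p = 3.1e-09) in male nectaries, and rose again by +9 hr (2.46 and 3.83, standard error 0.32 for both, adjusted p = 3.7e-06 and 1.5e-08). On the first day it rose in female nectaries (1.21, standard error 0.36, adjusted p = 0.01). That rise did not pass without −24 hr replicate 1 (0.99, adjusted p = 0.051) or without −15 hr replicate 3 (0.94, adjusted p = 0.12). In male nectaries the first-day difference was 0.15 (standard error 0.32, adjusted p = 0.87), and the −24 and −15 hr libraries overlapped.

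APRR1 (XM_008446469.1) is the counterpart of *TOC1*, which in Arabidopsis is expressed in the evening and represses *LHY* and *CCA1*. Female values were 1053, 1346 and 1901 at −24 hr, 3023 and 3674 at −15 hr, 609, 1218 and 668 at 0 hr, and 1919, 6200 and 3565 at +9 hr. Male values were 1462, 1983 and 2540 at −24 hr, 2872, 3549 and 3837 at −15 hr, 674, 1138 and 1485 at 0 hr, and 1798, 1985 and 1662 at +9 hr. On both days and in both sexes each evening library lay above each library of the same morning. The rise on the second day passed in female nectaries (2.14, standard error 0.37, adjusted p = 5.8e-05 by limma), and in male nectaries it was 0.79 (standard error 0.37, adjusted p = 0.067), or 1.05 without 0 hr replicate 3 (adjusted p = 0.031). The first-day rise passed in female nectaries (1.26, standard error 0.41, adjusted p = 0.017), though not without −24 hr replicate 1 (1.06), −15 hr replicate 1 (1.40) or −15 hr replicate 3 (1.12). Overnight, APRR1 fell by 2.07 in female and by 1.70 in male nectaries (standard errors 0.41 and 0.37, adjusted p = 0.00026 and 0.00057).

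Both measured parts of the evening complex fell to their lowest values at full secretion. EARLY FLOWERING 3 (XM_008446275.1), the counterpart of the scaffold protein ELF3, had female values of 1240, 1749 and 2354 at −24 hr, 3359 and 3802 at −15 hr, 190, 322 and 219 at 0 hr, and 1367, 4452 and 3275 at +9 hr. Male values were 2115, 2325 and 3609 at −24 hr, 2441, 2626 and 4210 at −15 hr, 271, 385 and 505 at 0 hr, and 2915, 3694 and 2625 at +9 hr. All 6 libraries at 0 hr lay below the other 17. The entry fell overnight by 3.91 in female and by 3.00 in male nectaries (standard errors 0.41 and 0.37, adjusted p = 2.9e-07 and 1.5e-06 by limma). It rose by +9 hr (3.51 and 3.02, standard error 0.37 for both, adjusted p = 3.7e-07 and 1.1e-06). Its first-day rise in female nectaries (1.05, standard error 0.41, adjusted p = 0.041) was lost without −24 hr replicate 1 (0.82), −24 hr replicate 2 (1.06), −15 hr replicate 1 (1.14) or −15 hr replicate 3 (0.96). Among male nectaries the −24 and −15 hr libraries overlapped (0.20, standard error 0.37, adjusted p = 0.84).

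The DNA-binding part of the complex is known as LUX or PCL1, and its locus had entries for 2 transcripts. PCL1-like variant X3 (XM_008459232.1, locus LOC103497139) had female values of 48, 58 and 236 at −24 hr, 670 and 789 at −15 hr, 0, 14 and 11 at 0 hr, and 103, 289 and 137 at +9 hr. Male values were 14, 46 and 88 at −24 hr, 493, 490 and 563 at −15 hr, 0, 5 and 7 at 0 hr, and 166, 147 and 115 at +9 hr. On each day and in each sex every evening library lay above every morning library. The 0 hr values are at the floor of the measurement, so that the fitted changes depend on the 1 added before the logarithm. The overnight change was −7.01 in female and −7.15 in male nectaries (standard errors 1.01 and 0.91, adjusted p = 1.1e-05 and 2.3e-06 by limma) and became −5.43 and −5.26 with 10 added. With 10 added, the second-day changes of 4.83 and 5.29 (standard error 0.91 for both, adjusted p = 0.00014 and 5.2e-05) became 3.31 and 3.47. Without 0 hr replicate 1, at 0 in both sexes, the overnight changes were −5.76 and −6.22 and the second-day changes 3.58 and 4.36. Without female 0 hr replicate 2 the female changes were −7.72 and 5.54.

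On the first day variant X3 rose by 3.05 in female (standard error 1.01, adjusted p = 0.019 by limma) and 3.70 in male nectaries (standard error 0.91, adjusted p = 0.017). The female rise was 3.76 without −24 hr replicate 3 and was not called without any single other library of the comparison (2.62 to 3.16). The male rise was not called without −24 hr replicate 1 (2.99) or −15 hr replicate 2 (3.73) or 3 (3.63). Variant X4 (XM_008459233.1) ran from 0 to 343, with its highest values at −15 hr in both sexes, and made up 11.5 to 100% (median 36.4%) of the summed X3 and X4 values in the 22 libraries where these were above 0. An entry described as transcription factor LUX carried the identifier of another Arabidopsis gene and is not among the 12.

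*GIGANTEA* had entries at 2 loci, and both fell by more than 4-fold overnight in each sex. GIGANTEA-like 1 (XM_008458521.1, locus LOC103496591) had female values of 6119, 8882 and 12787 at −24 hr, 34698 and 29795 at −15 hr, 581, 2515 and 726 at 0 hr, and 5525, 7947 and 7493 at +9 hr. Male values were 15245, 17253 and 20234 at −24 hr, 20142, 47329 and 31737 at −15 hr, 518, 615 and 1319 at 0 hr, and 7383, 8463 and 6854 at +9 hr. The evening values were higher before secretion than after it in every library of each sex. From −15 to 0 hr the entry fell by 4.98 in female and by 5.38 in male nectaries (standard errors 0.50 and 0.45, adjusted p = 1.7e-07 and 1.6e-08 by limma). From 0 to +9 hr it rose by 2.76 and 3.33 (standard error 0.45 for both, adjusted p = 3.2e-05 and 3.4e-06). Female 0 hr replicate 2 (2515) was the highest of the 0 hr libraries, and without it the female changes were −5.63 and 3.41.

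GIGANTEA-like 2 (XM_008463690.1, locus LOC103500402) had female values of 2414, 3330 and 4731 at −24 hr, 5931 and 4809 at −15 hr, 652, 923 and 481 at 0 hr, and 1056, 2331 and 2189 at +9 hr. Male values were 3293, 2907 and 4612 at −24 hr, 4700, 5617 and 5580 at −15 hr, 400, 879 and 1209 at 0 hr, and 2141, 1975 and 1493 at +9 hr. It moved in the same directions as the first locus, by smaller steps. It fell overnight in female and in male nectaries (−3.01 and −2.81, standard errors 0.41 and 0.37, adjusted p = 5.6e-06 and 3.2e-06 by limma), and the second-day rise was 1.40 and 1.30 (standard error 0.37 for both, adjusted p = 0.0026 and 0.0047). Without male 0 hr replicate 1 the male rise was 0.84 and under 2-fold.

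The adagio proteins are the ZTL family, F-box proteins that sense blue light and mark other proteins for degradation. Adagio protein 3 (XM_008454189.1) is the counterpart of *FKF1*, which works with GI in the control of flowering time. Female values were 284, 459 and 1257 at −24 hr, 2196 and 2980 at −15 hr, 197, 1063 and 500 at 0 hr, and 1296, 2102 and 1226 at +9 hr. Male values were 209, 308 and 643 at −24 hr, 1404, 1232 and 2162 at −15 hr, 63, 90 and 129 at 0 hr, and 991, 2226 and 2761 at +9 hr. In each sex and on each day every evening library was higher than every morning library. The second-day rise was 1.66 in female and 4.33 in male nectaries (standard error 0.57 for both, adjusted p = 0.017 and 3.1e-06 by limma), and the sexes' second-day changes differed by −2.66 (standard error 0.81, adjusted p = 0.051). The female rise was 2.25 without 0 hr replicate 2, and did not pass without 0 hr replicate 1 (1.03) or +9 hr replicate 2 (1.42). The difference passed without female 0 hr replicate 1 (−3.29, adjusted p = 0.013), female +9 hr replicate 1 (−2.56) or male +9 hr replicate 1 (−3.10).

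The first-day rise of adagio protein 3 was 2.22 in female and 2.16 in male nectaries (standard errors 0.64 and 0.57, adjusted p = 0.0082 and 0.028 by limma). The female rise was not called without −15 hr replicate 3 (2.00) and was 2.82 without −24 hr replicate 3. In male nectaries it was called only with all libraries or without −24 hr replicate 3, and the other single omissions gave 1.80 to 2.33. Its overnight fall passed in both sexes (−2.44 and −4.09, standard errors 0.64 and 0.57, adjusted p = 0.0029 and 7.4e-06). The female value became −1.81 without 0 hr replicate 1 and −3.02 without replicate 2.

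Adagio protein 1 (XM_008453416.1), the counterpart of *ZTL*, whose transcript is nearly constant over the day in Arabidopsis, varied least of the 12. Its values ran from 886 to 2569 over the 23 libraries. The 0 hr libraries were at 2314, 2569 and 2098 in female and at 2269, 2424 and 2227 in male nectaries, and the +9 hr libraries at 1490, 886 and 1031 and at 1089, 1276 and 1580, with no overlap in either sex. The fall in female nectaries passed (−1.06, standard error 0.18, adjusted p = 6.4e-05 by limma) and went under 2-fold without 0 hr replicate 2 (−0.99) or +9 hr replicate 2 (−0.90). In male nectaries it was under 2-fold (−0.83, standard error 0.18, adjusted p = 0.00067).

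Counted over the 12 entries, 8 passed the test on the day before secretion in female and 5 in male nectaries, 10 overnight in each sex, and 12 and 10 on the day of secretion. To pass, or be called, an entry needs a change of 2-fold or more with an adjusted p below 0.05. From −24 to −15 hr in female nectaries, 8 of the 12 were higher and 0 lower, against 13.9% and 24.0% of all 8861 entries. No entry was lower even at an unadjusted p under 0.05 by limma. The 8 were APRR7, APRR1, PRR95, EARLY FLOWERING 3, both PCL1-like variants, GIGANTEA-like 1 and adagio protein 3. Their number rested on single libraries and was 3 without −24 hr replicate 1, 5 without −24 hr replicate 2, 4 without −15 hr replicate 1 and 2 without −15 hr replicate 3. With quantile normalization the GIGANTEA-like 1 rise of 1.86 was 1.00 and not called (adjusted p = 0.13 by limma), and APRR7 (0.86) and EARLY FLOWERING 3 (0.94) were not called. In male nectaries 3 entries were higher over the same hours (background 1.57%) and 2 lower (background 3.70%), namely both PCL1-like variants and adagio protein 3, and both LHY-like variants. The male count of 5 was 3 without −24 hr replicate 1, −15 hr replicate 2 or −15 hr replicate 3.

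Overnight, from −15 to 0 hr, 2 entries were higher and 8 lower in female nectaries, against 20.5% and 31.1% of all entries, and 2 were higher and 8 lower in male nectaries, against 17.5% and 29.7%. In each sex the 2 that rose were the LHY-like variants, and the 2 that were not called were PRR95 and adagio protein 1. Over the same hours the summed green tissue markers went from 89 and 2321 to between 5530 and 6384 in female and from between 95 and 173 to between 1464 and 5258 in male nectaries. The vascular markers went from 131 and 144 to between 646 and 932 in female and from between 137 and 188 to between 372 and 775 in male nectaries. These markers, like the fall of *CWINV4* overnight and of *SWEET9* and *MYB305* on the second day, moved with the clock entries, and their part in the clock changes was not tested. The ovule and style entry rose on the second day, and its part was not tested either. From 0 to +9 hr, 8 were higher and 4 lower in female nectaries (background 32.0% and 17.3%). Male nectaries had 7 higher and 3 lower (background 31.4% and 17.6%), where APRR1 and adagio protein 1 did not pass. The overnight and the second-day comparison share the 0 hr libraries. The median change over the 12 entries was 1.24 on the first day, −2.72 overnight and 1.90 on the second day in female nectaries, beside −0.19, −0.30 and 0.34 over all entries. In male nectaries it was 0.69, −2.90 and 2.16, beside −0.04, −0.31 and 0.29.

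**Figure D2:**
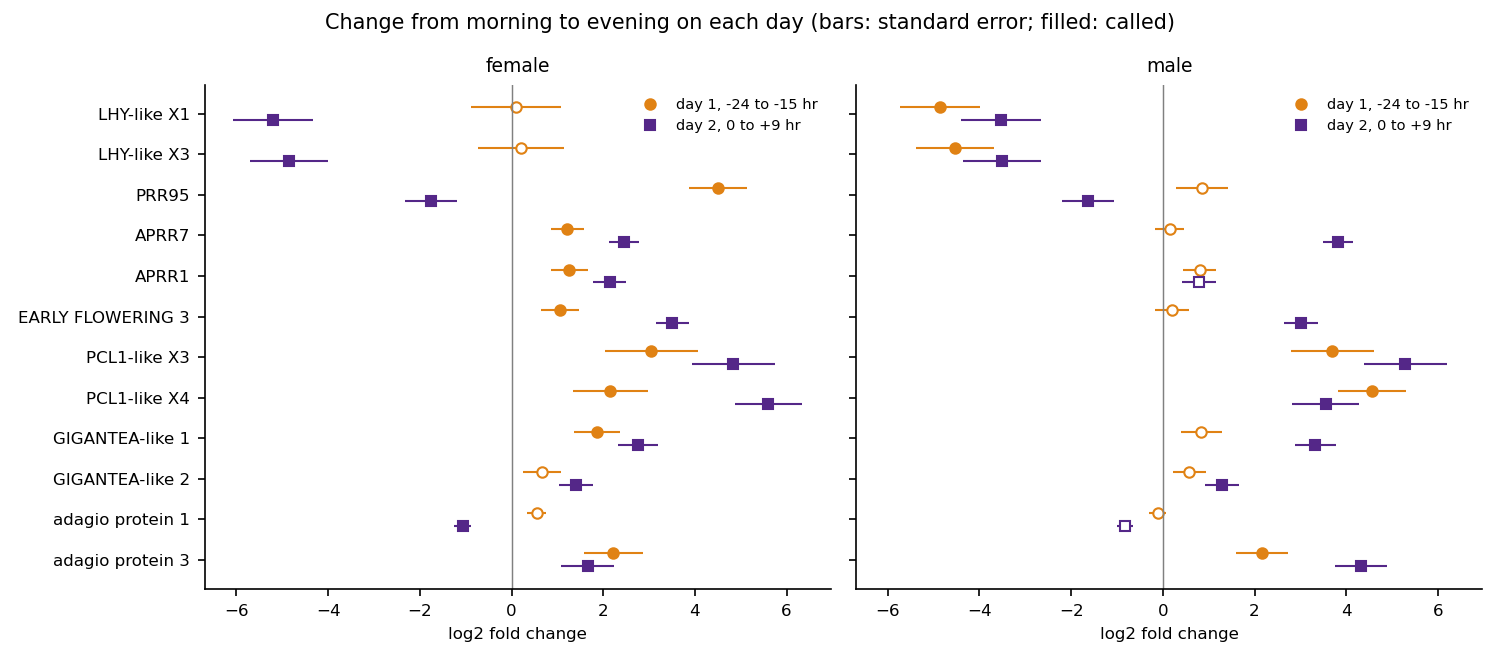
Log2 fold change of each of the 12 entries from the morning to the evening sample of each day, in female (left) and male (right) nectaries, with standard errors from limma. Filled points are called (adjusted p under 0.05 and at least 2-fold). On the second day LHY-like X1 fell in both sexes (−5.20 and −3.54), and on the first day only in male nectaries (−4.87, against 0.10 in female nectaries).

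The question of whether the days were alike was put by testing the second day's change against the first day's. In female nectaries 7 of the 12 entries differed, against 60.8% of all entries, and in male nectaries 5, against 47.2%, so that neither share stands out from the table. The LHY-like X1 change was lower on the second day in female nectaries (a difference of −5.30, standard error 1.31, adjusted p = 0.0016 by limma), where the first day had shown no fall (0.10, standard error 0.98). In male nectaries both days had a fall and the difference was 1.33 (standard error 1.23, adjusted p = 0.38). The female difference stayed called without any single library of the comparison and ran from −6.78 without +9 hr replicate 1 to −4.30 without −15 hr replicate 3, with −6.30 without −15 hr replicate 1, −4.71 without +9 hr replicate 2 and −4.42 without +9 hr replicate 3.

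APRR7 and EARLY FLOWERING 3 rose more on the second day than on the first in both sexes. For APRR7 the difference was 1.25 in female (standard error 0.49, adjusted p = 0.03 by limma) and 3.68 in male nectaries (standard error 0.46, adjusted p = 3.5e-06). The female one was not called without −24 hr replicate 3 (0.96), −15 hr replicate 1 (0.97), 0 hr replicate 1 (0.79) or +9 hr replicate 2 (1.12). It was also lost with TMM factors (0.85, adjusted p = 0.11 by limma) and with each sex fitted alone (adjusted p = 0.095). For EARLY FLOWERING 3 it was 2.45 (standard error 0.55, adjusted p = 0.00071) and 2.82 (standard error 0.52, adjusted p = 0.00019). For PRR95 the second-day change was the lower one, with differences of −6.27 in female (standard error 0.84, adjusted p = 4.4e-06) and −2.48 in male nectaries (standard error 0.79, adjusted p = 0.014). These were −7.05 without female +9 hr replicate 1 and −1.77 without male +9 hr replicate 1.

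At the same clock time, 9 of the 12 entries differed between the mornings and 2 between the evenings in female nectaries, and 7 and 6 in male nectaries. The shares of all entries called, given below for each direction, were large as well, so that none of these counts stands out as high. From −24 to 0 hr in female nectaries 3 entries were higher and 6 lower (background 25.6% and 38.0%), and in male nectaries 1 was higher and 6 lower (background 17.5% and 31.1%). The 3 that were higher in female nectaries were both LHY-like variants (7.43 for X1, standard error 0.87, adjusted p = 2.7e-07 by limma) and PRR95 (5.0, standard error 0.56, adjusted p = 1.5e-07). In male nectaries LHY-like X1 was higher by 1.59 and did not pass (standard error 0.87, adjusted p = 0.12). The 1 higher entry was variant X3 (1.98, adjusted p = 0.049), which was lost without any of male −24 hr replicates 1, 2 and 3 or 0 hr replicates 1 and 2 (1.49 to 2.05). Lower in both sexes on the morning of secretion were APRR7 (−2.11 in female and −4.47 in male nectaries, standard error 0.32 for both), EARLY FLOWERING 3 (−2.85 and −2.80, standard error 0.37 for both), PCL1-like X3 (−3.96 and −3.45, standard error 0.91 for both) and the GIGANTEA-like entries (−3.12 and −4.54, standard error 0.45 for both, for the first and −2.34 and −2.23, standard error 0.37 for both, for the second). Adjusted p-values of these 10 tests ran from 4.7e-09 to 0.0028. With 10 added before the logarithm the PCL1-like X3 values were −2.53 and −1.90. PCL1-like X4 was also lower in female (−4.59, standard error 0.74) and adagio protein 3 in male nectaries (−1.93, standard error 0.57). With quantile normalization the latter was −1.23 and not called (adjusted p = 0.084 by limma), nor was LHY-like X3 in male nectaries (1.70). Without female −24 hr replicate 3, 0 hr replicate 1 or 0 hr replicate 2 the female PCL1-like values were −3.25, −2.72 and −4.67 for X3 and −3.87, −3.79 and −5.19 for X4. The male X3 value was −4.15 without −24 hr replicate 1 and −2.52 without 0 hr replicate 1, and female GIGANTEA-like 1 was at −3.77 without 0 hr replicate 2. APRR1, not called with all libraries (−0.81 in female and −0.90 in male nectaries), was called without female −24 hr replicate 1 (−1.01) or 0 hr replicate 2 (−1.12), and without male −24 hr replicate 1 (−1.10) or 0 hr replicate 3 (−1.15).

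From −15 to +9 hr, 0 entries were higher and 2 lower in female nectaries (background 25.5% and 21.9%), while at an unadjusted p under 0.05 by limma 2 were higher and 5 lower. The 2 were the GIGANTEA-like entries (−2.22 and −1.61, standard errors 0.50 and 0.41, adjusted p = 0.00085 and 0.0025). With quantile normalization the GIGANTEA-like 1 fall was −1.25 in female and −1.40 in male nectaries, each still called. The female count was 5 without −15 hr replicate 3, 3 without −15 hr replicate 1 and 4 without any 1 of the +9 hr libraries. The LHY-like variants were called without −15 hr replicate 3 or +9 hr replicate 2 or 3 (2.72 to 3.12 for X1, against 2.12 with all libraries), and PRR95 without +9 hr replicate 1 (−2.05, against −1.27). In male nectaries 2 entries were higher and 4 lower (background 24.2% and 19.4%). Higher were the LHY-like variants (2.91 for X1, standard error 0.87, adjusted p = 0.0079), which for X1 did not pass without +9 hr replicate 3 (2.30, adjusted p = 0.051). The GIGANTEA-like entries were again lower (−2.05 and −1.51, standard errors 0.45 and 0.37, adjusted p = 0.00065 and 0.0016), with PRR95 (−1.67) and PCL1-like X4 (−1.97). PRR95 did not pass without −15 hr replicate 2 (−1.56) or +9 hr replicate 1 (−0.96), and PCL1-like X4 not without −15 hr replicate 1 (−1.87) or 3 (−1.94) or +9 hr replicate 3 (−1.70). The morning and evening comparisons share no library.

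**Figure D3:**
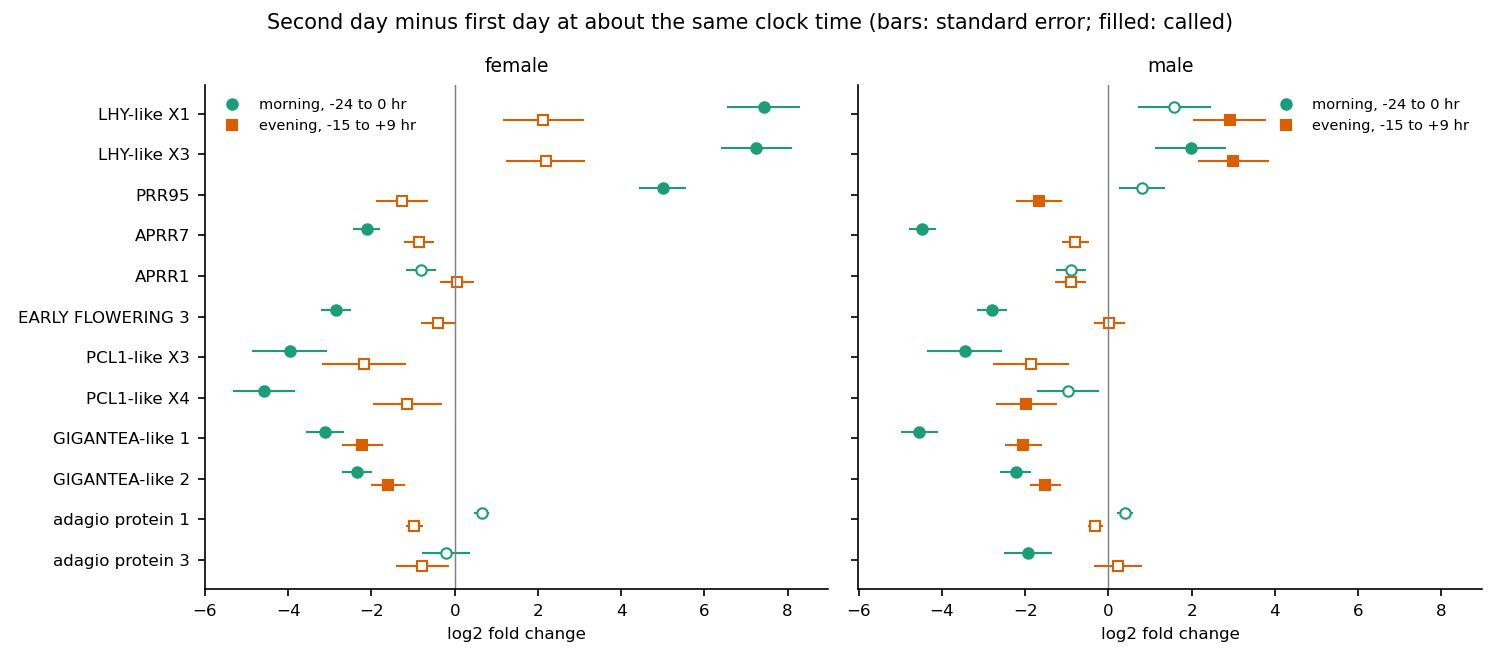
Second day minus first day at about the same clock time, as log2 fold changes with standard errors from limma, for the morning samples (−24 to 0 hr, circles) and the evening samples (−15 to +9 hr, squares). Filled points are called. GIGANTEA-like 1 was lower on the second day in the morning (−3.12 in female and −4.54 in male nectaries) and in the evening (−2.22 and −2.05), and LHY-like X1 was higher in the female morning by 7.43.

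Between female and male nectaries at −24 hr, 5 of the 12 entries were called, against 41.2% of all entries, so that the share does not stand out from the table. Lower in female nectaries were LHY-like X1 (−5.32, standard error 0.87, adjusted p = 5.1e-05 by limma), LHY-like X3 (−5.00, standard error 0.85, adjusted p = 7.2e-05), PRR95 (−3.97, standard error 0.56, adjusted p = 1e-05) and APRR7 (−1.09, standard error 0.32, adjusted p = 0.0082). PCL1-like X4 was higher (2.53, standard error 0.74, adjusted p = 0.0072). APRR7 did not pass without female −24 hr replicate 1 (−0.87), nor with quantile normalization (−0.86). PCL1-like X4 did not pass without female −24 hr replicate 3 (1.82), and was 3.20 without male −24 hr replicate 3 and 1.67 with quantile normalization. For LHY-like X1 and PRR95 no female library reached the lowest male library. GIGANTEA-like 1 was called without female −24 hr replicate 3 (−1.24, against −0.98 with all libraries). GIGANTEA-like 2 and APRR1 overlapped between the sexes. In these same female libraries the nectary genes *SWEET9* and *MYB305* were far below the male values, the pollen and vascular markers were higher, and the part of these in the clock difference was not tested.

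At −15 hr 0 entries differed between the sexes (background 0.135%), and 0 had an unadjusted p under 0.05 by limma. At 0 hr 0 were called (background 0.248%), with 2 under 0.05 unadjusted, APRR7 (1.27, standard error 0.32, adjusted p = 0.073) and adagio protein 3 (2.37, standard error 0.57, adjusted p = 0.065). Both passed without female 0 hr replicate 1 (1.73 and 3.00). At +9 hr 0 were called against 14.7% of all entries, with 1 under 0.05 unadjusted, APRR1 (0.95, standard error 0.37, adjusted p = 0.073). Without female +9 hr replicate 1, in which LHY-like X1 stood at 14725 and *SWEET9* at 22863 against 368 and 951 in the other female +9 hr libraries, 3 entries were called. These were APRR1 (1.38, adjusted p = 0.006), LHY-like X1 (−2.62, adjusted p = 0.0047) and LHY-like X3 (−2.43, adjusted p = 0.0098). With all libraries LHY-like X1 was at −1.14 (adjusted p = 0.37 by limma). The library left out was the female +9 hr library highest in LHY-like and lowest in APRR1 (1919, against 6200 and 3565). Its omission by itself lowers the female LHY-like mean and raises the female APRR1 mean, so that this fit can test neither difference. The share of all entries called in it is not given here. When male replicate 3, also picked by its LHY-like value, was left out as well, the same 3 entries were called, which is no test of them either.

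The first day's change differed between the sexes for 3 entries, against 28% of all entries, so that the share does not stand out. These were LHY-like X1 (4.97, standard error 1.31, adjusted p = 0.0078 by limma), LHY-like X3 (4.74, standard error 1.27, adjusted p = 0.0087) and PRR95 (3.66, standard error 0.84, adjusted p = 0.0032). Without female −15 hr replicate 3, LHY-like X1 (3.97, adjusted p = 0.061) and X3 (3.43, adjusted p = 0.081) did not pass, and without replicate 1 they were 5.97 and 6.04. APRR7 was called in addition without female −24 hr replicate 3 (1.35), and PCL1-like X4 without male −24 hr replicate 3 (−3.07). The second day's change differed for 0 entries (background 7.18%), with 3 at an unadjusted p under 0.05. It differed for 4 without female +9 hr replicate 1, for 2 without female 0 hr replicate 1 and for 1 without male +9 hr replicate 1. Both LHY-like variants and APRR1 are among the 4. Female +9 hr replicate 1 was the female +9 hr library highest in LHY-like and lowest in APRR1, so that these calls can test neither difference.

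**Figure D4:**
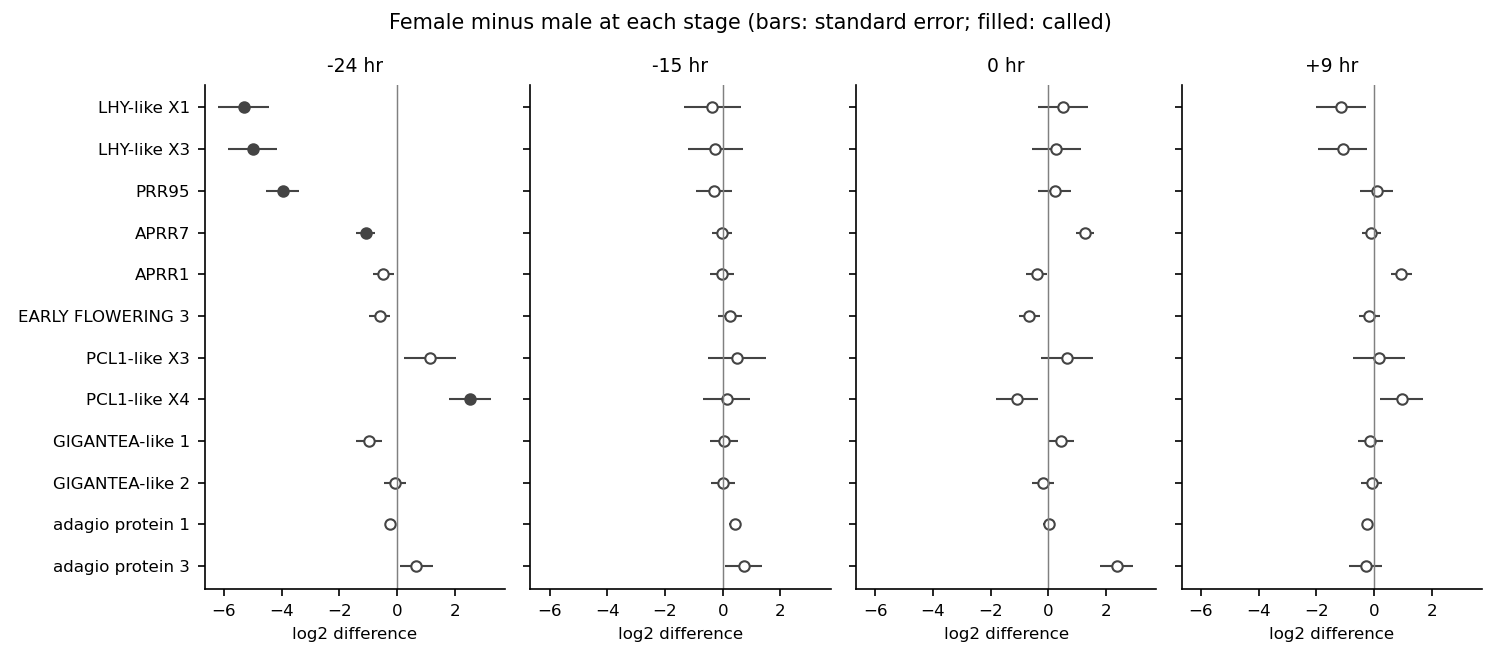
Female minus male log2 difference of each of the 12 entries at −24, −15, 0 and +9 hr, with standard errors from limma. Filled points are called. The 5 called entries are all at −24 hr, from LHY-like X1 at −5.32 to PCL1-like X4 at 2.53.

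Averaged over both sexes and both days, 7 entries were higher in the evening and 2 in the morning, against 12.5% and 6.55% of all entries. The average takes in the 0 hr libraries, so that time of day and the secretory stage are not separated in it. The median over the 12 was 1.58, beside 0.08 over all entries. Higher in the evening were PCL1-like X3 (4.22, standard error 0.47) and X4 (3.97, standard error 0.38), adagio protein 3 (2.59, standard error 0.30), GIGANTEA-like 1 (2.20, standard error 0.23), EARLY FLOWERING 3 (1.95, standard error 0.19), APRR7 (1.91, standard error 0.17) and APRR1 (1.25, standard error 0.19), with adjusted p-values by limma from 5.1e-08 to 2.1e-05. Higher in the morning were LHY-like X1 (−3.38, standard error 0.45, adjusted p = 5.2e-06) and X3 (−3.17, standard error 0.44, adjusted p = 7.5e-06). GIGANTEA-like 2 was just under 2-fold (0.99, standard error 0.19, adjusted p = 0.00023) and just over it, at 1.01 to 1.08, in 9 of the 23 fits that left out 1 library. PRR95 did not pass (0.49, standard error 0.29, adjusted p = 0.16). The average does not mean a like change on each day. On the male first day APRR7 changed by 0.15 and EARLY FLOWERING 3 by 0.20 (adjusted p = 0.87 and 0.84 by limma). For both, the change differed between the days in each sex. The PCL1-like entries and adagio protein 3 were called on each day in each sex. Without the female first day the same 9 entries were called with GIGANTEA-like 2 (1.09) in addition, where LHY-like X1 was at −4.54, LHY-like X3 at −4.30 and PCL1-like X4 at 4.57.

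The balance of dawn and evening genes was read in each library as log2 LHY-like X1 minus log2 GIGANTEA-like 1. It lay between 4.11 and 7.53 in the 6 libraries at 0 hr, and between −7.31 and −4.91 in the 5 libraries at −15 hr. In the morning before secretion it was −3.35, −4.37 and −5.60 in female and 0.45, −0.01 and −0.72 in male nectaries. At +9 hr it was 1.41, −3.25 and −3.73 in female and −1.96, −1.07 and 0.52 in male nectaries. The sexes thus did not overlap at −24 hr, and they overlapped at the 3 other stages.

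As a description over the 23 libraries, which share their stages, GIGANTEA-like 1 varied most closely with APRR7 (Pearson r of 0.96), GIGANTEA-like 2 (0.95) and EARLY FLOWERING 3 (0.90). LHY-like X1 varied opposite to PCL1-like X4 (−0.90), PCL1-like X3 (−0.84) and GIGANTEA-like 2 (−0.81). PRR95 was between −0.30 and 0.57 with all other entries. Entries outside the 12 were ranked by r only if not described as uncharacterized or hypothetical. Among these, the highest r with LHY-like X1 was that of variant X6 of its own locus (0.99). Next came an entry with the *BBX18* identifier but described as salt tolerance-like protein At1g78600 (XM_008453835.1, 0.94), and *SPA1-RELATED 4* (XM_008454226.1, 0.94). They were followed by a salt tolerance protein-like entry (XM_008461817.1, 0.93) and chlorophyllide a oxygenase (XM_008468493.1, 0.92), which makes chlorophyll b. In the same ranking, the highest with GIGANTEA-like 1 were the abscisic acid receptor PYL8-like (XM_008439359.1, 0.96) and the cohesion protein PDS5 homolog A (XM_008465412.1, 0.96). The metal transporter Nramp3-like (XM_008457599.1, 0.95), the entry NLRC3 (XM_008463767.1, 0.95) and a kinase described as splB-like (XM_008450281.1, 0.95) came next.

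Beyond the core, the 32 Arabidopsis identifiers of clock-associated regulators matched 18 entries (15 identifiers), and the 22 of clock outputs matched 9 entries (9 identifiers). By time of day 1 of the 18 regulators was higher in the evening and 3 in the morning, beside 12.5% and 6.55% of all entries, with a median of −0.04. A counterpart of *RVE6*, a MYB gene related to *LHY* (XM_008441057.1), was higher in the evening (2.39, standard error 0.38, adjusted p = 3.1e-05 by limma). The other entry with the *RVE6* identifier (XM_008439311.1) did not pass (−0.34, standard error 0.27, adjusted p = 0.31) and had its highest means at 0 hr, 2268 ± 272 in female and 2237 ± 305 in male nectaries (n = 3 each). Higher in the morning were the counterparts of *LNK1*, a coactivator of evening genes (XM_008457421.1, −1.10, standard error 0.21, adjusted p = 0.00023), *TOPLESS*, a corepressor (described as topless-related protein 4-like, XM_008458721.1, −1.14, standard error 0.31, adjusted p = 0.0046), and the light-signalling ubiquitin ligase *COP1* (XM_008460765.1, −2.90, standard error 0.36, adjusted p = 2.5e-06). The *LNK1* counterpart was at 665 ± 69.2 (mean ± SD, n = 3) in female and 9000 ± 2483 (n = 3) in male nectaries at −24 hr, a low female value as for LHY-like X1 and PRR95. On the female first day it rose, to 2192.5 ± 441 (n = 2) at −15 hr. The topless-related mean also rose on the male first day, from 67.3 ± 7.02 to 109 ± 71.2 (n = 3 each). The other daily means of these 3 morning entries were higher in the morning. These *TOPLESS* and *COP1* counterparts had their highest means at 0 hr, with 1231 ± 245 and 1970 ± 474 in female and 908 ± 544 and 1386 ± 610 in male nectaries (n = 3 each). A further entry of each gene, described by the gene's own name, was not called by time of day and had its lowest means at 0 hr. These were 839 ± 126 in female and 856 ± 151 in male nectaries for *TOPLESS* (XM_008455969.1), and 218 ± 18 and 199 ± 7.37 for *COP1* (XM_008458180.1, n = 3 each).

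Of the 9 outputs, 1 was higher in the evening and 5 in the morning, beside the same 12.5% and 6.55% of all entries, with a median of −1.21. The counterpart of *GRP7*, an RNA-binding protein with its own daily rhythm in Arabidopsis (XM_008462713.1), was higher in the evening (2.18, standard error 0.19, adjusted p = 5.3e-08 by limma). In male nectaries it went from 4616 ± 1349 at −24 hr to 14463 ± 4553 at −15 hr, 650 ± 70.6 at 0 hr and 12396 ± 3548 at +9 hr (n = 3 each). In female nectaries it was at 19393 ± 1830 (n = 3), 17486 ± 1307 (n = 2), 1803 ± 824 (n = 3) and 14595 ± 6148 (n = 3), with no low value on the first morning. The 5 higher in the morning were 4 B-box entries with the identifiers of *BBX18* (−3.29 and −3.24), *BBX24* (−3.49) and *BBX25* (−1.99), which act in light signalling, and a counterpart of *CDF1* and *CDF3* (−1.21), whose proteins FKF1 and GI remove in Arabidopsis. Not every day went that way. On the female first day the *BBX25* entry went from 186 ± 28.3 (n = 3) to 359 ± 31.8 (n = 2). On the male second day the *CDF1* and *CDF3* counterpart went from 332 ± 60.1 to 387 ± 66.6 (n = 3 each). The other daily means of these 5 entries were higher in the morning. The *BBX24* and *BBX25* entries are transcript variants X1 and X3 of 1 melon locus (LOC103498974), so that they are not independent and the split of reads between them is uncertain. The *BBX24* counterpart (XM_008461815.1) was at 38.7 ± 4.16 (n = 3), 5.5 ± 3.54 (n = 2), 14870 ± 3699 (n = 3) and 1665 ± 2443 (n = 3) in female nectaries from −24 to +9 hr, with 4486 in +9 hr replicate 1, the library that was also high in LHY-like X1. Between the sexes at −24 hr, 2 of the 9 outputs were higher and 5 lower in female nectaries, where 41.2% of all entries were called.

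**Figure D5:**
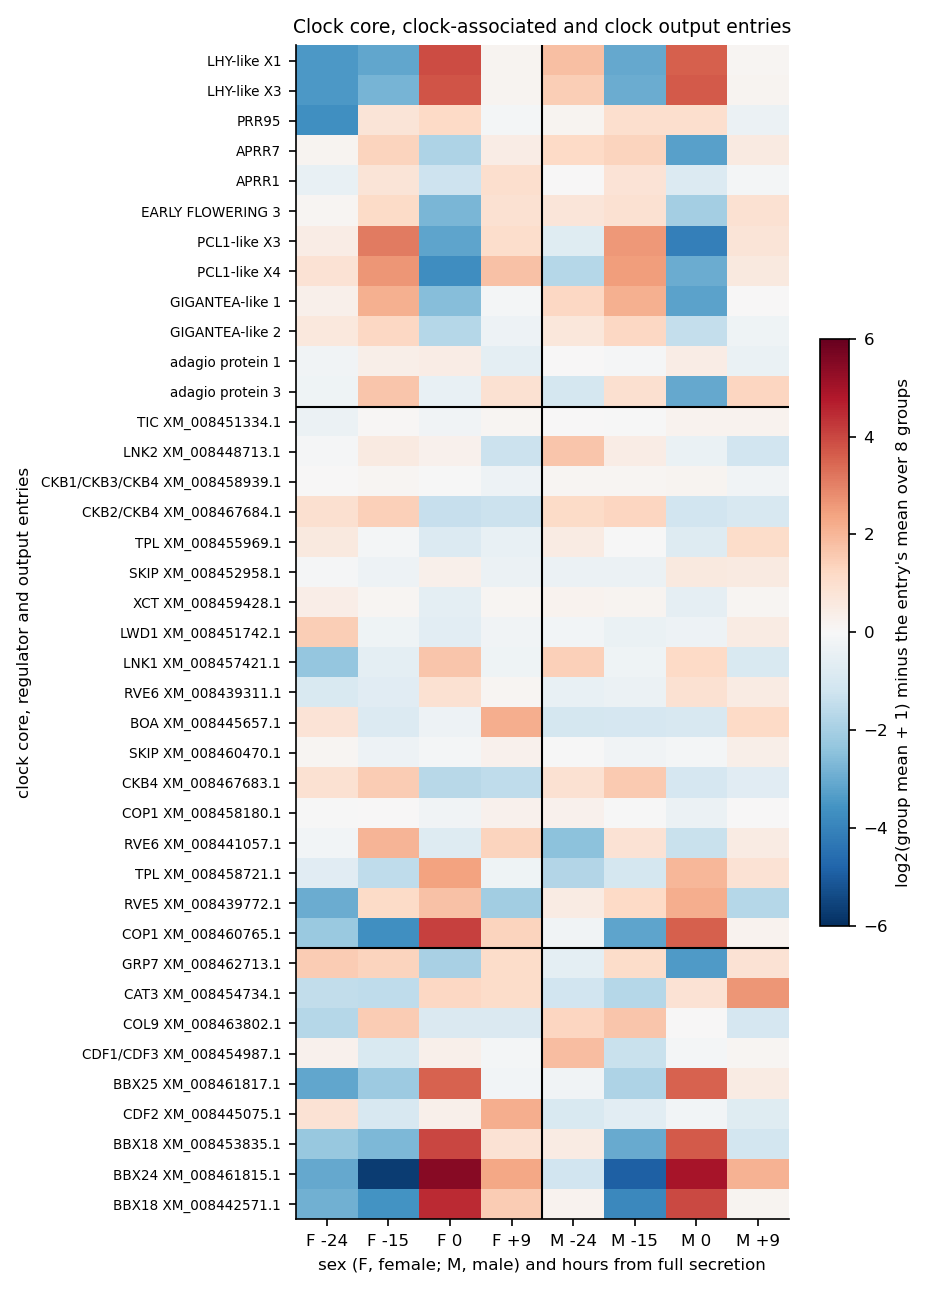
Group means of the 12 core entries (top), 18 clock-associated regulator entries (middle) and 9 clock output entries (bottom), named by the Arabidopsis genes whose identifiers they carry, as log2(mean + 1) minus the mean of the entry's 8 group values. Red is above and blue below that mean. The LHY-like entries, the COP1 entry XM_008460765.1 and the entries of BBX18, BBX24 and BBX25 are highest at 0 hr in both sexes, and the counterpart of GRP7 is lowest there.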

How the data were processed

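RNA of hand-dissected nectaries was sequenced by the authors from TruSeq libraries. Per the study's methods, contigs were built with Trinity and matched to melon genes by blastn, and counts were scaled by the upper quartile. The deposited values are used here as scores, since the authors rounded normalized values to whole numbers. Other deposited sheets hold group means, ratios and p-values of the authors' comparisons and were not used.

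Values were tested as log2(value + 1) by limma 3.58.1 under R 4.3.3, using 1 mean per sex and stage, a mean-variance trend and Benjamini-Hochberg adjustment over all 8861 entries in each of 19 comparisons. No filter on low values was applied, and all 12 members were tested. The test was checked on simulated data. Alternatives were another added value, TMM factors, quantile normalization, a filter on low means, no trend, each sex alone, summed loci, a replicate block and each library left out. The 12 members were all named, with values per library for the entry of highest mean for each Arabidopsis gene, list entries where the time of day was called, and the 5 entries most correlated with LHY-like X1 and GIGANTEA-like 1. Members and entries described as uncharacterized or hypothetical were left out of that ranking. Members and lists were chosen with earlier results of these data known. A value is not a number of reads, so that depth is unknown, and values under about 10 are imprecise. No sequence was used here.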

Additional observations from a re-analysis of the deposited data

Results flagged for a closer look

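Effects that differed between the sexes or between the days, each by a test of the difference in limma, are listed here as log2 differences. The first day's change was higher in female than in male nectaries for LHY-like X1 (4.97), LHY-like X3 (4.74) and PRR95 (3.66). In this comparison 28% of all entries were called, so that the share of clock entries does not stand out. LHY-like X1 and X3 are transcripts of the same locus, so that their differences are not independent. Without female −15 hr replicate 3 these LHY-like values were 3.97 and 3.43, and without replicate 1 they were higher. Either omission leaves a single library in that group.

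In female nectaries the change on the second day, compared with the first, differed for LHY-like X1 (−5.30), LHY-like X3 (−5.07), APRR7 (1.25), PRR95 (−6.27), EARLY FLOWERING 3 (2.45), PCL1-like X4 (3.45) and adagio protein 1 (−1.62). Without single libraries the LHY-like X3 difference ran from −6.42 (+9 hr replicate 1) to −3.76 (−15 hr replicate 3), with −6.37 without −15 hr replicate 1, −4.38 without +9 hr replicate 2 and −4.40 without +9 hr replicate 3. The PCL1-like X4 difference rests on 0 hr values of 0 to 6. It was 1.64 with 10 in place of 1 added before the logarithm and then did not pass (adjusted p = 0.073), and it ran from 2.64 without 0 hr replicate 1 to 4.12 without +9 hr replicate 1, with 2.73 without −24 hr replicate 3 and 4.05 without 0 hr replicate 2.

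In male nectaries it differed for APRR7 (3.68), PRR95 (−2.48), EARLY FLOWERING 3 (2.82), GIGANTEA-like 1 (2.49) and adagio protein 3 (2.16). For adagio protein 3 it did not pass without any 1 of 7 libraries, which were −24 hr replicate 3, −15 hr replicates 1 and 2, 0 hr replicates 1 and 2 and +9 hr replicates 2 and 3 (1.72 to 2.16). Nor did it pass with TMM factors (1.89, adjusted p = 0.055 by limma) or quantile normalization (1.38, adjusted p = 0.18).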

How the results depend on the processing

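The number of clock entries called was recomputed under 8 other settings for the whole table and with each library left out. It moved by more than 1.5 times in these cases. The sexes' difference in the second day's change had 1 with 10 added before the logarithm, 1 with TMM factors, 2 with a replicate block and 2 without both +9 hr libraries high in LHY-like. The female first day had 5 with quantile normalization and 4 with each sex fitted alone. The sexes differed for 1 entry at +9 hr with quantile normalization and 3 without both +9 hr libraries, and for 1 at 0 hr with a replicate block. With the entries of each locus summed, the male first day had 3 and the sexes at −24 hr 3. The female evening comparison had 4 without both +9 hr libraries. With single libraries left out, counts ran from 2 to 8 for the female first day, 3 to 5 for the female evening, 3 to 5 for the male first day, 0 to 2 for the sexes at 0 hr, 0 to 3 at +9 hr, 1 to 4 for the sexes' difference on the first day and 0 to 4 on the second.

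No member that was called reversed its direction under any of these settings. Among single entries, 8 calls were lost and 4 gained with quantile normalization, 2 and 4 with TMM factors, 5 and 2 with each sex fitted alone, 1 and 3 with 10 added, and 2 and 0 without the mean-variance trend. TMM factors moved the median change of all entries by over 0.1 in several comparisons, the male mornings from −0.35 to −0.06 and the female second day from 0.34 to 0.08. The share of higher among all called entries moved by over 10 percentage points with quantile normalization for the female first day (36.6% to 51.1%), the second day of each sex (64.9% to 48.3% and 64.1% to 48.9%), the evenings (53.8% to 42.9% and 55.5% to 45.3%), the male mornings (36% to 46.2%, and 47.4% with TMM factors), the difference of the days (64.1% to 48.5% and 65.5% to 49.5%, and 54.8% with TMM factors in male nectaries), the sexes at −24 hr (59.7% to 49.6%) and 0 hr (72.7% to 60%) and the time of day (65.7% to 52.3%).

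Replicate numbers did not pair the samples, since deviations of same-numbered libraries correlated between −0.50 and 0.27, with no comparison of 14 above 0.1 for every pair. With the replicate block, 6 calls of single entries were gained and 1 was lost, LHY-like X3 in the male mornings. Leaving out both +9 hr libraries, or the female first day, was chosen after seeing the data. The 0 hr values of the PCL1-like entries, 0 to 14, limit the size of their changes.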
